A study of Saccharomyces cerevisiae with 8 samples.

Results

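The lysine synthesis genes were the 8 genes LYS20, LYS21, LYS4, LYS12, LYS2, LYS5, LYS9 and LYS1, which encode enzymes of the pathway, together with LYS14, which encodes their transcriptional activator. They were chosen by name, as the pathway and its regulator, with earlier results of these data known, and are 9 of the 6120 genes in the count table. All 9 passed the filter on low counts, as did 5909 genes in all. Their polyA-selected mRNA was measured by RNA-seq in 4 haploid Saccharomyces cerevisiae strains, each with 2 libraries, collected in mid-log growth at 30°C in synthetic complete (SC) medium.

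All 4 strains shared the W303a background, which is MATa and carries ura3, trp1, leu2, his3, ade2 and can1 alleles but no listed lys mutation. Tfg1-K60,61R-HA expressed Tfg1, the large subunit of the general transcription factor TFIIF, with arginine in place of lysines 60 and 61, a change made to reduce SUMO attachment, and with an HA epitope tag at the C-terminus marked by Kluyveromyces lactis TRP1. The strain list of the study also records an inadvertent change of an asparagine to glutamine in this allele, so the lysine changes and that change cannot be told apart. Tfg1-HA carried the same tag and marker on unmutated Tfg1. In ubc9-6, tandem ubc9-1 alleles with TRP1 stood at the UBC9 locus, which encodes the SUMO-conjugating enzyme. W303a was the untagged wild type. Whether the RNA-seq libraries of a strain came from separate cultures or transformants is not given in the sources used here, so p-values measure the spread between these libraries, which may be technical.

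Fungi make lysine through the α-aminoadipate route, which starts from 2-oxoglutarate and acetyl-CoA and is absent from animals. The first enzymes, homocitrate synthase, homoaconitase and homoisocitrate dehydrogenase, work by chemistry like that of the citric acid cycle, while the last enzymes reduce α-aminoadipate and pass through saccharopine to lysine. Lysine inhibits homocitrate synthase, and the zinc cluster protein Lys14 activates the genes of the pathway when the intermediate α-aminoadipate semialdehyde is present. Gcn4, the general activator of amino acid synthesis genes under starvation, acts on many of them as well.

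The libraries held between 26674458 and 34614232 counts. UBC9, at 183.5 and 189.5 CPM (a gene's share of all counts on a per-million scale, with TMM scaling of library sizes) in ubc9-6 and between 74.08 and 83.23 CPM in the other 6 libraries, was high where the allele is duplicated, which checks that label. TFG1 lay between 160.4 and 200.6 CPM in all 8 libraries and does not test the substitutions. The 5 mating type a genes summed to between 1080 and 1520 CPM in every library, and the 4 mating type alpha genes to between 31.1 and 45.6 CPM, of which SAG1 alone was at 24.4 to 34.2 CPM. None of these markers was at 0. Among the strains, the libraries of Tfg1-K60,61R-HA differed most from each other, with an SD of the log2 difference over all genes of 0.292, against 0.175 for Tfg1-HA, 0.139 for ubc9-6 and 0.159 for W303a.

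Sequence upstream of the 9 genes was searched for short strings of letters modelled on the sites of the activators. The Lys14 type was taken as TCCNNNGGA, a loose string in which N is any base, and the Gcn4 type as TGACTC. A match need not be a site that either protein binds. Both strands of the 500 bases before each start codon were searched. The R64 (sacCer3) genome was used, which gives all 9 genes the same coordinates as the count table. Matches to the Lys14 type lay upstream of 5 of the 9 genes, a motif found upstream of 5.9% of 6000 genes. They are shown because the 5 genes include both the first step (LYS21) and the last steps (LYS9, LYS1) of the pathway and LYS14 itself. Each is written 5′ to 3′ on the strand of its gene, with the match in capitals.
LYS21, chrIV:227053-227081, plus strand: gagttgaaatTCCGCTGGAaatcgtcacc
LYS12, chrIX:187796-187824, minus strand: ttcactttttTCCCGTGGAaaaatattct
LYS9, chrXIV:715595-715623, minus strand: gaatcgaaatTCCGTTGGAaaaattcgct
LYS9, chrXIV:715533-715561, minus strand: attgagaattTCCAATGGAattatcagca
LYS1, chrIX:420914-420942, minus strand: atttttttttTCCAGCGGAatttggaatt
LYS14, chrIV:512307-512335, minus strand: tggaaaaattTCCTCAGGAatttcaaaat

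The capitals began 330 bases before the start codon in LYS21, 182 in LYS12, 225 and 163 in LYS9, 196 in LYS1 and 216 in LYS14. Gcn4-type matches lay upstream of 4 of the 9 genes, a motif found upstream of 12.7% of the 6000 genes. LYS12, LYS2 and LYS14 had 1 each, and LYS1 had 2, on the opposite strand, where the gene's strand reads GAGTCA. They are shown in the same way.
LYS12, chrIX:187775-187800, minus strand: attcttaagaTGACTCtaattagagg
LYS2, chrII:474105-474130, minus strand: ttttcgcgtgTGACTCaatgtcgaaa
LYS1, chrIX:420970-420995, minus strand: ctaagtcgatGAGTCAaaaaagactc
LYS1, chrIX:420855-420880, minus strand: cagcgacaaaGAGTCAtaaagtcatc
LYS14, chrIV:512344-512369, minus strand: ggacgcgacgTGACTCaattggaaga

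The windows of LYS20, LYS4 and LYS5 held neither run of letters. A match describes the letters only, and no binding was measured in these data.

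**Figure D1:**
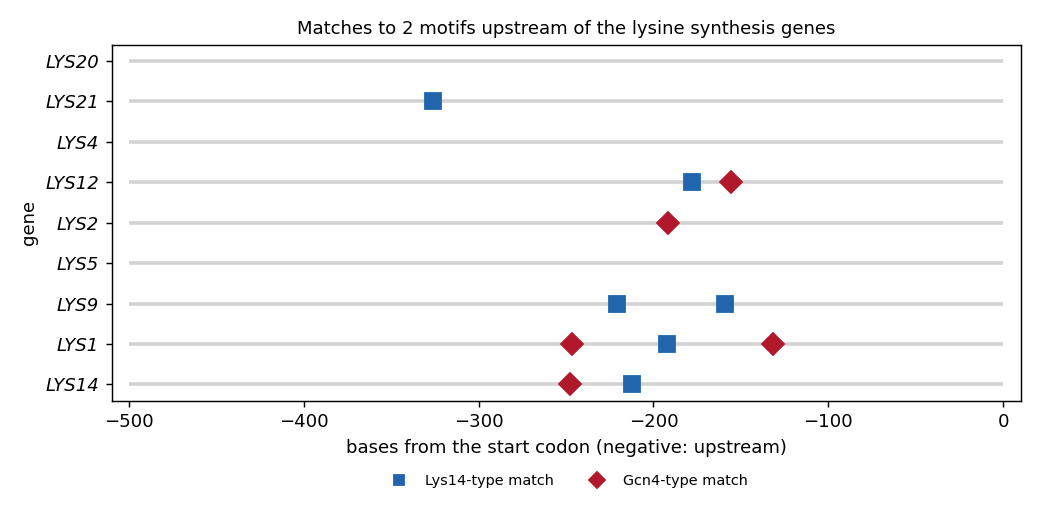
Positions of Lys14-type matches (squares) and Gcn4-type matches (diamonds) in the 500 bases before the start codon of each of the 9 genes, with distance in bases on the horizontal axis. LYS12, LYS1 and LYS14 hold both types, while LYS20, LYS4 and LYS5 hold neither.

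Per length, LYS12 had the highest mRNA level of the 9 genes, with a mean over the 8 libraries of 257.7 CPM per kb. It encodes homoisocitrate dehydrogenase and lies on chromosome IX from 186517 to 187632, minus strand. LYS21, one of the homocitrate synthase genes, followed at 205.7 CPM per kb, above the other homocitrate synthase gene, LYS20, at 118.9 CPM per kb. LYS9, which makes saccharopine, was at 141 CPM per kb, and LYS1, which splits it to give lysine, at 98.69 CPM per kb.

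LYS4, the homoaconitase gene, was at 86.98 CPM per kb, and LYS2, the long gene of α-aminoadipate reductase, at 70.78 CPM per kb. The lowest levels belonged to the genes of proteins that act on the pathway rather than in it. LYS14 was at 36.4 CPM per kb, the percentile 41.6 of all genes tested. LYS5, which encodes the enzyme that attaches the phosphopantetheine arm to Lys2, was at 25.65 CPM per kb, the percentile 30. LYS5 also had the fewest counts, 465 to 821 a library, while the other 8 genes had 2167 to 11798. No other gene in the annotation overlapped any of the 9.

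In sacCer3 coordinates, LYS4 ran on chromosome IV from 931129 to 933210 (plus strand), LYS14 on IV from 509737 to 512109 (minus), LYS2 on II from 469748 to 473926 (minus) and LYS5 on VII from 215278 to 216096 (minus). LYS1 shared chromosome IX with LYS12 and ran from 419615 to 420736 (minus), and LYS9 ran on XIV from 714048 to 715388 (minus).

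The 8 enzyme genes together held 1710.2 and 1338.6 CPM in Tfg1-K60,61R-HA, 1347.1 and 1232.4 CPM in Tfg1-HA, 1576 and 1691.3 CPM in ubc9-6, and 1598.1 and 1589.8 CPM in W303a. The sum was thus lowest in Tfg1-HA replicate 2 and highest in Tfg1-K60,61R-HA replicate 1, and the W303a libraries were the closest pair. All 8 enzyme genes were higher in replicate 1 than in replicate 2 of Tfg1-K60,61R-HA, by a median of 0.31 on the log2 scale, with 31 of 51 genes of other amino acid pathways higher and a median of 0.05. In Tfg1-HA 7 of 8 were higher in replicate 1 (median 0.11), as were 40 of the 51 (median 0.07). In ubc9-6 none of the 8 was (median −0.10), with 20 of the 51 (median −0.02), and in W303a 5 of 8 were (median 0.02), with 29 of the 51 (median 0.01).

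**Figure D2:**
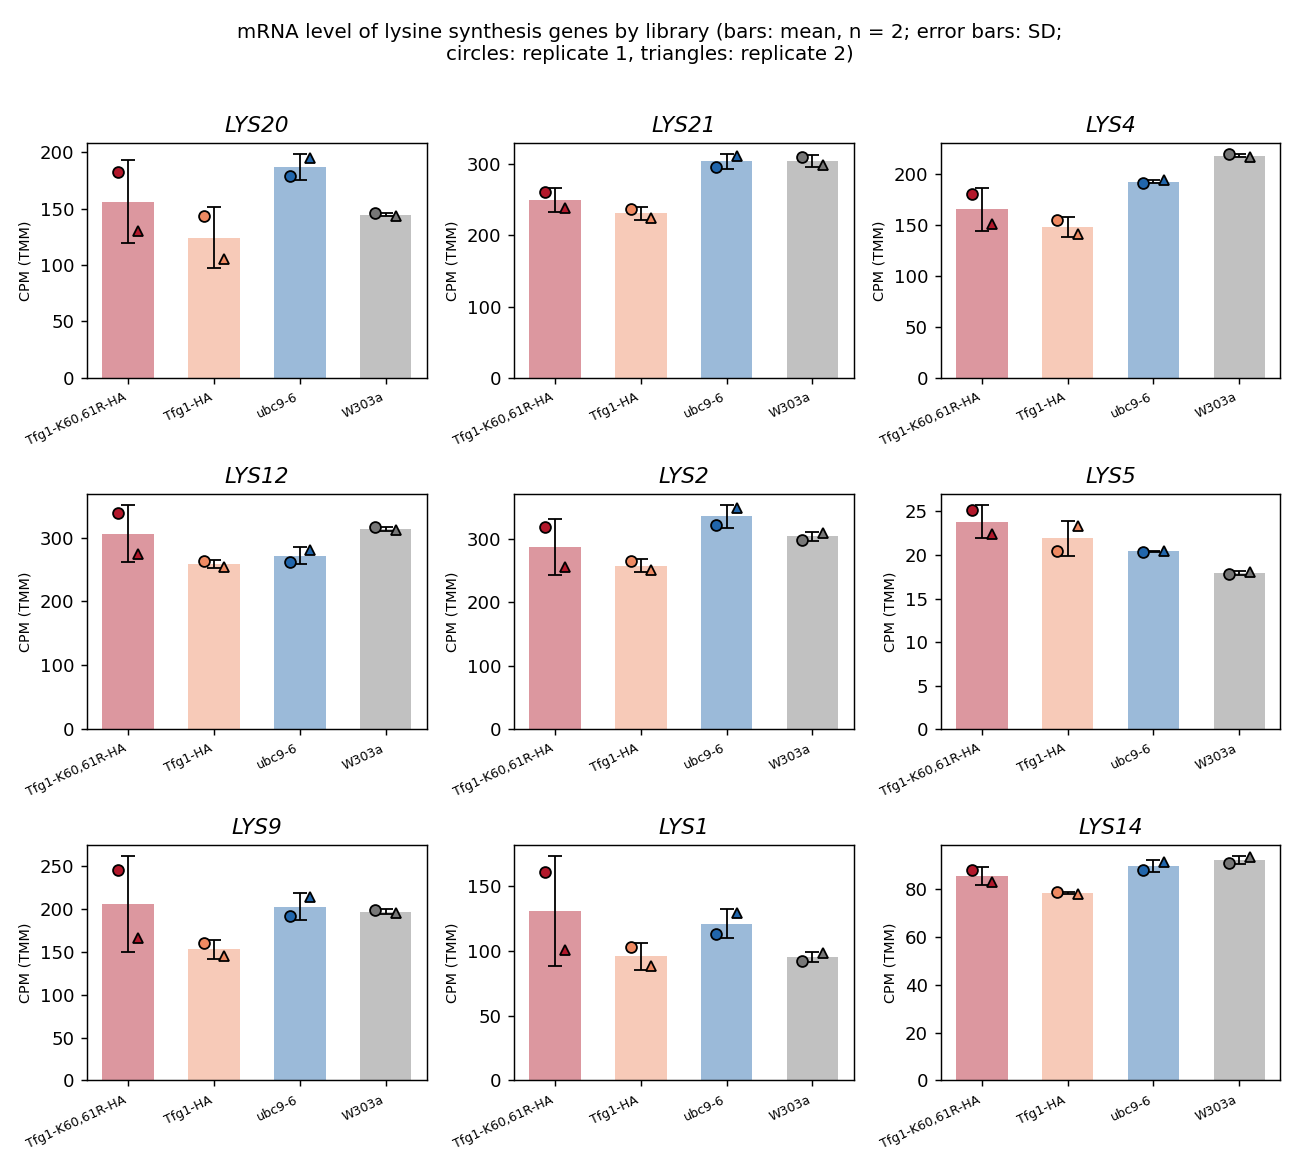
CPM with TMM scaling for each of the 9 genes in Tfg1-K60,61R-HA, Tfg1-HA, ubc9-6 and W303a, with a bar for the mean, an error bar for the SD (n = 2) and a point for each library. The libraries of Tfg1-K60,61R-HA lie far apart for LYS20, LYS9 and LYS1, while those of W303a lie close together for all 9 genes.

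The first comparison was of Tfg1-HA with W303a, which asks what goes with the tag and its marker. Of the 9 genes, 4 were lower in Tfg1-HA (LYS4, LYS21, LYS14 and LYS12) and LYS5 was higher. All tests used edgeR's quasi-likelihood F-test on the 8 libraries, with Benjamini-Hochberg adjustment over 5909 genes and calls at adjusted p under 0.05. Here the background was high: 43% of all genes tested were called, 21.5% as higher in Tfg1-HA and 21.5% as lower.

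LYS4, which turns homocitrate into homoisocitrate, had 155.2 and 141.1 CPM in Tfg1-HA, against 219.3 and 216.7 CPM in W303a. Both Tfg1-HA libraries were well below both W303a libraries. The log2 fold change was −0.56 (SE 0.0822, edgeR adjusted p = 0.00104), a level of 0.679 times that of W303a, and 9.36% of genes changed by more.

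LYS21 had 237 and 224.7 CPM in Tfg1-HA, against 309.7 and 298.2 CPM in W303a, again without overlap. Its log2 fold change was −0.40 (SE 0.0589, edgeR adjusted p = 0.00108). The other homocitrate synthase gene, LYS20, had 143.2 and 105.4 CPM in Tfg1-HA, against 145.6 and 143.5 CPM in W303a. The Tfg1-HA libraries of LYS20 were thus far apart, 1 of them close to W303a, and the log2 fold change of −0.22 did not pass (SE 0.167, edgeR adjusted p = 0.321).

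LYS14 had 78.76 and 77.91 CPM in Tfg1-HA, against 91 and 93.19 CPM in W303a. The difference was small, with a log2 fold change of −0.23 (SE 0.0455, edgeR adjusted p = 0.00399). The libraries within each strain lay close together, while the SE came from the fit of all 8 libraries. LYS12 had 263.3 and 254.3 CPM in Tfg1-HA, against 316 and 311.6 CPM in W303a, a log2 fold change of −0.28 (SE 0.0868, edgeR adjusted p = 0.031).

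LYS5 went the other way. It had 20.45 and 23.34 CPM in Tfg1-HA, against 17.77 and 18.09 CPM in W303a, a log2 fold change of 0.29 (SE 0.0883, edgeR adjusted p = 0.0289). Both Tfg1-HA libraries were above both W303a libraries. Its partner gene LYS2, with 264.5 and 250.6 CPM in Tfg1-HA against 298.7 and 308.9 CPM in W303a, had a log2 fold change of −0.24 that did not pass (SE 0.0931, edgeR adjusted p = 0.0684).

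The genes of the final steps did not pass either. LYS9 had 160.5 and 144.4 CPM in Tfg1-HA, against 198.6 and 194.5 CPM in W303a (log2 fold change −0.37, SE 0.153, edgeR adjusted p = 0.0839). LYS1 had 103 and 88.6 CPM in Tfg1-HA, against 92.45 and 98.23 CPM in W303a, and was the gene of the 9 whose strains overlapped (log2 fold change 0.01, 95% confidence interval −0.42 to 0.43). Over the 9 genes the median log2 fold change was −0.24, against −0.00216 over all genes tested. In 7 of the 9 both Tfg1-HA libraries were below both W303a libraries, as in 39.3% of all genes, and in LYS5 both were above, as in 38% of all genes.

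LYS4, LYS21 and LYS14 kept their calls whichever 1 of the 4 libraries was left out. LYS12 lost its call without each of them (edgeR adjusted p = 0.0813 without Tfg1-HA replicate 1, 0.139 without replicate 2, 0.123 without W303a replicate 1 and 0.11 without replicate 2), and LYS5 lost it without Tfg1-HA replicate 2 (0.176), W303a replicate 1 (0.115) or W303a replicate 2 (0.104). In a fit of the 4 libraries alone, LYS2 (adjusted p = 0.00356) and LYS9 (0.000936) were also called lower, among 2900 of 5892 genes called in all. LYS20 and LYS21 share long stretches of sequence, which makes the level of each uncertain.

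**Figure D3:**
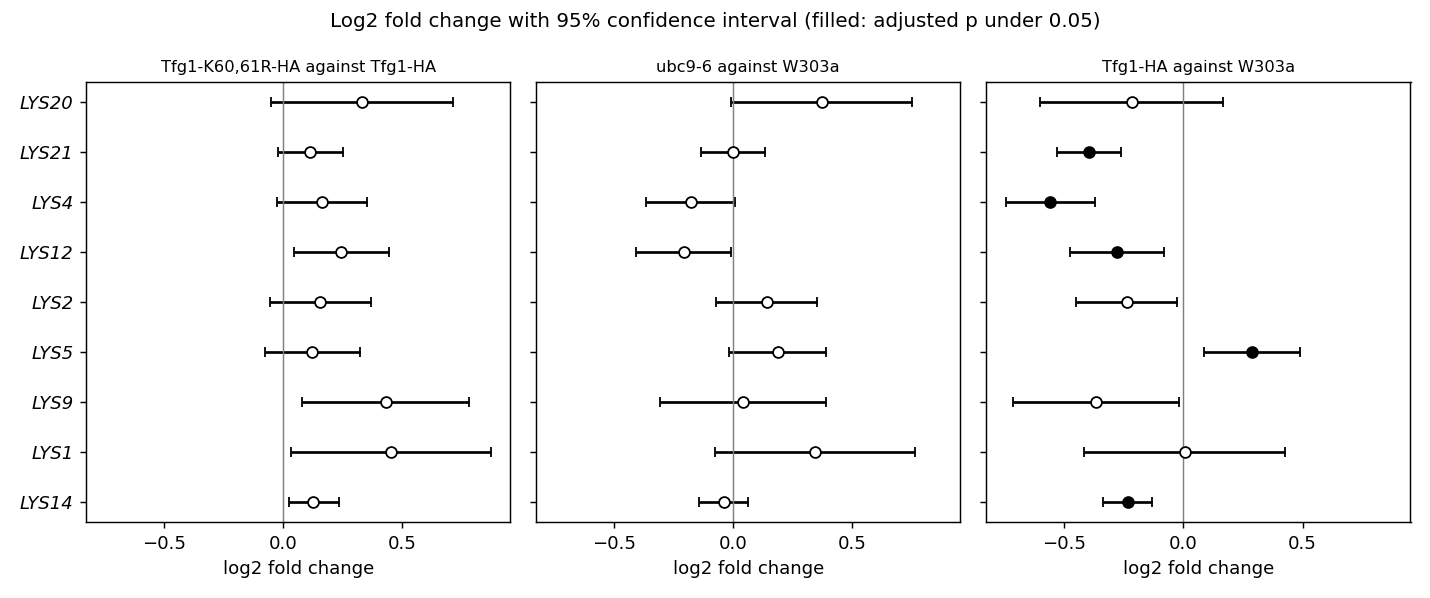
Log2 fold change (horizontal axis) with its 95% confidence interval for the 9 genes, in panels for Tfg1-K60,61R-HA over Tfg1-HA (left), for ubc9-6 over W303a (middle) and for Tfg1-HA over W303a (right), with filled points for edgeR adjusted p under 0.05. The 5 filled points are all in the right panel, 4 below 0 and LYS5 above it, and all 9 points of the left panel are above 0 and open.

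Tfg1-K60,61R-HA was next compared with Tfg1-HA, the pair that differs by the substitutions in Tfg1. None of the 9 genes was called. No gene at all was, so percent called was 0%, while 572 of the 5909 genes had an unadjusted p under 0.05 in edgeR (DESeq2 called 36 of the 525 genes to which it gave an adjusted p, and it gave none to any of the 9). The mean of each of the 9 genes was higher in Tfg1-K60,61R-HA, with log2 fold changes between 0.11 (LYS21) and 0.45 (LYS1) and a median of 0.16, against −0.00255 over all genes tested. The smallest edgeR adjusted p was 0.457, and LYS12, LYS9, LYS1 and LYS14 had an unadjusted p under 0.05.

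LYS9 had 244.5 and 165.7 CPM in Tfg1-K60,61R-HA, against 160.5 and 144.4 CPM in Tfg1-HA. Replicate 1 of Tfg1-K60,61R-HA stood far above the other 3 libraries, and replicate 2 was only slightly above the higher Tfg1-HA library. The log2 fold change was 0.43 (SE 0.153, 95% confidence interval 0.08 to 0.78, edgeR adjusted p = 0.457).

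LYS1 had 160.7 and 100.9 CPM in Tfg1-K60,61R-HA, against 103 and 88.6 CPM in Tfg1-HA. Replicate 2 lay between the Tfg1-HA libraries, so the strains overlapped (log2 fold change 0.45, SE 0.183, edgeR adjusted p = 0.512). LYS20 showed the same layout, with 182.1 and 130.4 CPM in Tfg1-K60,61R-HA against 143.2 and 105.4 CPM in Tfg1-HA (log2 fold change 0.33, SE 0.167).

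LYS12 had 337.7 and 274.8 CPM in Tfg1-K60,61R-HA, against 263.3 and 254.3 CPM in Tfg1-HA (log2 fold change 0.24, SE 0.0868). LYS14 had 88.1 and 82.92 CPM in Tfg1-K60,61R-HA, against 78.76 and 77.91 CPM in Tfg1-HA (log2 fold change 0.13, SE 0.0457). In these 2 genes, in LYS9 and in LYS21 both Tfg1-K60,61R-HA libraries were above both Tfg1-HA libraries, 4 of 9, as in 18.4% of all genes tested. None had both below, as in 17.4% of all genes.

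LYS21 had 261.5 and 238 CPM in Tfg1-K60,61R-HA, against 237 and 224.7 CPM in Tfg1-HA. LYS4 had 180.5 and 150.8 CPM in Tfg1-K60,61R-HA, against 155.2 and 141.1 CPM in Tfg1-HA, and LYS2 318.2 and 255.6 CPM against 264.5 and 250.6 CPM. In both LYS4 and LYS2 it was replicate 1 of Tfg1-K60,61R-HA that lay apart, and replicate 2 was within the Tfg1-HA values. LYS5, at 25.16 and 22.46 CPM in Tfg1-K60,61R-HA against 20.45 and 23.34 CPM in Tfg1-HA, overlapped too.

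The values moved with the library left out. Without Tfg1-K60,61R-HA replicate 1 the log2 fold changes of the 9 genes lay between −0.01 (LYS2) and 0.12 (LYS9) with no call. Without replicate 2 of that strain they lay between 0.17 (LYS14) and 0.75 (LYS1), and some of these genes were called higher. That fit held only replicate 1 of the strain. Leaving out a Tfg1-HA library also moved LYS20 (0.57 without replicate 1, 0.13 without replicate 2), LYS5 (0.03 and 0.22) and LYS4 (0.23 and 0.09), with no call. What set the libraries apart was not tested.

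The comparison of ubc9-6 with W303a addresses reduced SUMO conjugation together with the TRP1 marker, which W303a lacks, and these cannot be told apart. No member was called, although 20.8% of all genes tested were, 11.4% higher and 9.36% lower in ubc9-6. The 9 genes did not share a direction: the log2 fold changes lay between −0.21 (LYS12) and 0.37 (LYS20), with a median of 0.04, against −0.0038 over all genes tested. The smallest edgeR adjusted p was 0.12 (LYS12), the single gene with an unadjusted p under 0.05.

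LYS20 had 178.6 and 195 CPM in ubc9-6, against 145.6 and 143.5 CPM in W303a. Both ubc9-6 libraries were above both W303a libraries (log2 fold change 0.37, SE 0.166, 95% confidence interval −0.01 to 0.75, edgeR adjusted p = 0.144). LYS21 had 296.6 and 311.3 CPM in ubc9-6, against 309.7 and 298.2 CPM in W303a, with the same mean of 304 CPM in both strains. The interval of its log2 difference ran from −0.13 to 0.13.

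LYS1 had 113 and 129 CPM in ubc9-6, against 92.45 and 98.23 CPM in W303a (log2 fold change 0.34, SE 0.184, edgeR adjusted p = 0.211). LYS2 had 322.3 and 347.6 CPM in ubc9-6, against 298.7 and 308.9 CPM in W303a (log2 fold change 0.14). LYS5 had 20.39 and 20.42 CPM in ubc9-6, against 17.77 and 18.09 CPM in W303a (log2 fold change 0.19, edgeR adjusted p = 0.164). With LYS20 these made 4 of the 9 genes with both ubc9-6 libraries above both W303a libraries, as in 35% of all genes.

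LYS4 had 191.4 and 193.8 CPM in ubc9-6, against 219.3 and 216.7 CPM in W303a (log2 fold change −0.18, edgeR adjusted p = 0.151). LYS12 had 262.4 and 280.7 CPM in ubc9-6, against 316 and 311.6 CPM in W303a (log2 fold change −0.21, SE 0.0868). These 2 genes, for homoaconitase and homoisocitrate dehydrogenase, had both ubc9-6 libraries below both W303a libraries, as in 36.4% of all genes. LYS9, at 191.3 and 213.4 CPM in ubc9-6 against 198.6 and 194.5 CPM in W303a, and LYS14, at 87.93 and 91.26 CPM against 91 and 93.19 CPM, overlapped.

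The calls differed with the libraries fitted. With only the 4 libraries of ubc9-6 and W303a in the edgeR fit, 5 of the 9 genes were called, LYS20 (adjusted p = 0.000486), LYS1 (0.00311) and LYS2 (0.0467) higher and LYS12 (0.0072) and LYS4 (0.00778) lower, among 2090 of 5900 genes called in all. For these genes the log2 fold changes in the fit of all libraries and in this fit were nearly the same. They were 0.37 in both for LYS20, 0.344 and 0.342 for LYS1, and 0.141 and 0.14 for LYS2. LYS12 (−0.209) and LYS4 (−0.179) did not move. The fit of all libraries also drew its spread from the Tfg1 strains. Replicates of Tfg1-K60,61R-HA had an SD of the log2 difference over all genes of 0.292. It was 0.175 in Tfg1-HA, 0.139 in ubc9-6 and 0.159 in W303a. Whether that spread accounts for the calls was not tested.

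The effect in ubc9-6 was also set against the effect in Tfg1-K60,61R-HA, in a single contrast of the edgeR fit, the log2 fold change of ubc9-6 over W303a minus that of Tfg1-K60,61R-HA over Tfg1-HA. None of the 9 genes was called, against 6.08% of all genes tested, and 3 had an unadjusted p under 0.05. LYS12 came nearest, with a difference of −0.45 (SE 0.123, edgeR adjusted p = 0.0675), followed by LYS4 at −0.34 (SE 0.116, adjusted p = 0.128) and LYS14 at −0.17 (SE 0.0643, adjusted p = 0.169). DESeq2 called 2 of the 9, LYS12 (adjusted p = 0.0024) and LYS4 (0.0391), among 464 of the 5679 genes with an adjusted p. For LYS20 the difference was 0.04, with a wide interval of −0.50 to 0.58.

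LYS20 and LYS21 encode isozymes for the same, lysine-sensitive step. Both are on chromosome IV in the plus orientation, LYS20 from 133437 to 134723 and LYS21 from 227393 to 228715. Their coding sequences were identical at 91.9% of 1278 aligned bases, with an unbroken run of 278 bases, and their proteins at 91.1% of 426 aligned residues. Fragments that mapped to more than 1 place were not counted, so fragments that fit inside the identical stretches are missing from both genes and each level is uncertain. How many were lost was not tested.

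Of the counts on the pair, LYS20 took 37.59% in ubc9-6 replicate 1 (exact 95% binomial interval 36.83% to 38.36%) and 38.51% in replicate 2 (37.78% to 39.24%), against 31.98% (31.14% to 32.82%) and 32.48% (31.73% to 33.24%) in W303a. The share was thus higher in both ubc9-6 libraries, by more than counting error. With 2 libraries against 2, an exact permutation test cannot give a two-sided p below 0.333, and none is given.

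In Tfg1-K60,61R-HA the share was 41.05% and 35.4%, against 37.67% and 31.93% in Tfg1-HA. Here each strain's libraries differed by more than counting error, and the strains overlapped. The intervals cover counting error only, since amplified reads are not independent molecules.

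**Figure D4:**
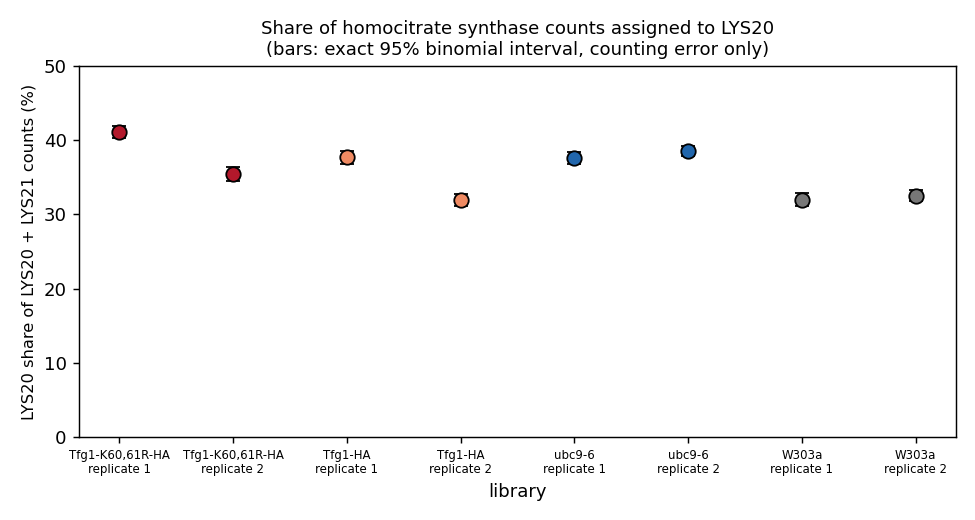
Share of the LYS20 and LYS21 counts that fell on LYS20 (percent, vertical axis) in each of the 8 libraries, with exact 95% binomial intervals. The ubc9-6 libraries, at 37.59% and 38.51%, lie above the W303a libraries, at 31.98% and 32.48%, while the libraries of each Tfg1 strain are spread.

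Ranked by mean level, no order of the strains held for all 9 genes. W303a was highest for LYS4, LYS12 and LYS14, ubc9-6 for LYS20 and LYS2, and Tfg1-K60,61R-HA for LYS5, LYS9 and LYS1. For LYS21, W303a and ubc9-6 shared the top, with the same mean of 304 CPM. Tfg1-HA was lowest for 7 genes, the exceptions being LYS5 and LYS1, where W303a was lowest. For LYS12, neighbouring strains overlapped at every rank. The ratio of the highest to the lowest strain mean ran between 1.176 (LYS14) and 1.502 (LYS20).

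Across the 8 libraries, LYS9 followed the mean of the other enzyme genes most closely, with Pearson's r = 0.986 on log2 CPM. LYS2 (r = 0.884) and LYS20 (r = 0.85) came next, then LYS1 (0.715), LYS21 (0.627), LYS4 (0.615) and LYS12 (0.614), while LYS5 did not follow it (r = −0.227). LYS14 had r = 0.815 with the mean of the 8 enzyme genes. Among pairs, LYS21 with LYS4 (r = 0.947) and LYS4 with LYS14 (r = 0.942) were the closest, and LYS4 with LYS5 (r = −0.70) the most opposed. These are descriptions over 8 libraries that share strain and depth.

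By the same measure, of 5689 other genes whose counts averaged 50 or more, the 5 most like the 8 enzyme genes were RIB3 (r = 0.977), a riboflavin synthesis gene, AST1 (0.972), RPL29 (0.961), a ribosomal protein gene, SUR2 (0.96), a sphingolipid hydroxylase gene, and NIT1 (0.945). The lysine synthesis genes themselves were left out of the candidates. The strain means of the 5 genes named differed by 1.072-fold (RIB3) to 1.353-fold (SUR2) between the highest and the lowest strain.

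The 9 other genes tied to lysine comprised aminotransferases, the 2-oxoadipate carriers, the lysine permease, lysyl-tRNA synthetases and regulators. In Tfg1-HA against W303a 3 of these 9 were called lower and 1 higher, against 21.5% lower and 21.5% higher of all genes tested. KRS1, the cytoplasmic lysyl-tRNA synthetase gene, had 970.8 and 898.8 CPM in Tfg1-HA, against 1122 and 1150 CPM in W303a (log2 fold change −0.28, edgeR adjusted p = 0.00164). GCN4 mRNA (log2 fold change −0.14, edgeR adjusted p = 0.0372) and MKS1, a negative regulator of the pathway's 2-oxoglutarate supply (−0.14, adjusted p = 0.0342), were also lower. Both of these lost their call without Tfg1-HA replicate 1 (adjusted p = 0.223 for GCN4 and 0.2 for MKS1), without W303a replicate 1 (0.166 and 0.0949) or without W303a replicate 2 (0.105 and 0.165), MKS1 also without Tfg1-HA replicate 2 (0.0597). Gcn4 is known to be controlled mainly in translation.

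ARO9, an aromatic aminotransferase gene that responds to aromatic amino acids, was the gene among these 9 that was called in more than 1 comparison. It had 32.21 and 30.88 CPM in Tfg1-HA, against 15.47 and 18.74 CPM in W303a (log2 fold change 0.88, SE 0.116, edgeR adjusted p = 0.000658). In ubc9-6 it had 41.88 and 45.61 CPM, against the same W303a libraries (log2 fold change 1.35, SE 0.115, edgeR adjusted p = 0.000233). Its relative ARO8, the main aminotransferase that acts on 2-oxoadipate, had log2 fold changes of −0.01 and 0.06 in the same comparisons and passed in neither. Tfg1-HA and ubc9-6 both carry a TRP1 marker that W303a lacks, and whether ARO9 followed the marker was not tested.

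In ubc9-6 against W303a, 2 of these 9 other genes were called higher, ARO9 and ODC1, and none lower. Of all genes tested, 11.4% were called higher and 9.36% lower. ODC1, which encodes a mitochondrial 2-oxoadipate carrier, had 28.4 and 30.94 CPM in ubc9-6, against 24.18 and 21.64 CPM in W303a (log2 fold change 0.38, SE 0.0948, edgeR adjusted p = 0.0275). Its call was lost whichever 1 of the 4 libraries was left out (adjusted p = 0.0547 without ubc9-6 replicate 1, 0.189 without replicate 2, 0.0715 without W303a replicate 1 and 0.163 without replicate 2). In Tfg1-K60,61R-HA against Tfg1-HA none of them was called. The difference between the ubc9-6 and Tfg1-K60,61R-HA effects passed for ARO9 alone, at 1.07 (SE 0.16, edgeR adjusted p = 0.00837), against 6.08% of all genes tested.

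For scale, 51 genes of other amino acid pathways were counted in the same fits. In Tfg1-HA against W303a 17 of them were called lower and 4 higher, with a median log2 fold change of −0.08. Of all genes tested, 21.5% were called lower there and 21.5% higher. In ubc9-6 against W303a 3 of the 51 were called lower and 4 higher (median −0.02), against 9.36% lower and 11.4% higher of all genes. In Tfg1-K60,61R-HA against Tfg1-HA none was called, as over all genes, with 43 of the 51 above 0 (median 0.07). The comparisons of Tfg1-K60,61R-HA with Tfg1-HA and of Tfg1-HA with W303a share the Tfg1-HA libraries, and those of ubc9-6 and of Tfg1-HA with W303a share the W303a libraries, so their values are not independent of each other.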

How the data were processed

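PolyA-selected, directional RNA-seq libraries of 4 yeast strains (2 each) were analysed. The authors aligned paired reads with HISAT2 2.1.0 and made the deposited counts with featureCounts (Subread 2.0.0), per gene over exons of the sacCer3 RefSeq annotation, without strand and without fragments that mapped to several places or overlapped several genes. Antisense transcription therefore cannot be told from sense. Tables of the authors' own comparisons, made with edgeR 3.32.1, hold log2 fold changes, mean levels, test statistics, p-values and FDR and were not used.

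Counts were filtered with filterByExpr, scaled by TMM and fitted with edgeR 4.0.16 (quasi-likelihood F-test, R 4.3.3) on all 8 libraries, with 4 contrasts, Benjamini-Hochberg adjustment over 5909 genes and a threshold of 0.05. CPM used TMM-scaled library sizes. Log2 CPM for correlations had a prior count of 2. The code was tested on simulated data. Alternatives were edgeR's likelihood ratio test, DESeq2 1.42.0, RLE scaling, other filters, a replicate block, the 4 libraries of a comparison alone, and each library left out. Replicate numbers were not shown to pair libraries.

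The 9 genes and all gene lists were chosen with earlier results of these data known. A further lysine-related gene is not reported here. By the rule for names, the text names all 9, the UBC9 and TFG1 checks, the other lysine-related genes that were called (and ARO8 beside ARO9, chosen after its values were seen), and the 5 genes outside the pathway with the highest correlation. Upstream sequence and the identity of LYS20 and LYS21 came from the R64 RefSeq genome, with Biopython 1.88.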

Additional observations from a re-analysis of the deposited data

How the results depend on the processing

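Each of the 9 genes had 465 counts or more in every library, and each strain had 2 libraries. Under edgeR's likelihood ratio test, 3 genes were called in Tfg1-K60,61R-HA against Tfg1-HA, and 1 of the 9 genes was called in the difference between the ubc9-6 and Tfg1-K60,61R-HA effects (455 genes in all). DESeq2 called 36 of 525 genes with an adjusted p in the same comparison of strains, none of the 9 having one, and 2 of the 9 in that difference (464 of 5679 genes). With the 4 compared libraries alone, ubc9-6 against W303a gave 5 of the 9 genes and 2090 genes in all. The replicate block called 0 of the 9 genes in Tfg1-K60,61R-HA against Tfg1-HA, 0 in ubc9-6 against W303a, 5 in Tfg1-HA against W303a and 0 in the difference of effects, with 0, 1107, 2480 and 253 genes in all, and changed no call among the 9. The numbers were not shown to pair the libraries: same-numbered deviations had r = 0.118 between Tfg1-K60,61R-HA and Tfg1-HA, −0.188 between ubc9-6 and W303a, and 0.0159 between Tfg1-HA and W303a. A replicate block with the numbers of ubc9-6 crossed, chosen after seeing the data, called 1 of the 9 (1282 genes in all).

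With each library left out in turn, the genes called in all ranged between 0 and 446 in Tfg1-K60,61R-HA against Tfg1-HA, 262 and 659 in ubc9-6 against W303a, 1560 and 1921 in Tfg1-HA against W303a, and 94 and 672 in the difference of effects. Of the 9 genes, 0 to 6 were called in the first of these, 0 in the second, 3 to 4 in the third and 0 to 3 in the difference. The cause of these moves was not tested beyond the smaller number of libraries.

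Signs turned for uncalled values near 0. LYS21 in ubc9-6 against W303a was −0.000539 with DESeq2, −0.000615 with RLE scaling, −3.16e-05 without a filter, −0.000295 with 4 libraries and −0.000311 with the crossed block, and between −0.0347 and 0.0347 with a library left out. LYS1 in Tfg1-HA against W303a was −0.0024 with the replicate block and between −0.106 and 0.111 with a library left out. Leaving out a library gave LYS9 between −0.0386 and 0.119 in ubc9-6 against W303a and LYS2 between −0.011 and 0.305 in Tfg1-K60,61R-HA against Tfg1-HA. In the difference of effects it gave LYS2 between −0.164 and 0.146, LYS1 between −0.403 and 0.263, LYS20 between −0.198 and 0.296 and LYS5 between −0.0341 and 0.157. Over all alternatives for the 9 genes, 83 of 90 in Tfg1-K60,61R-HA against Tfg1-HA, 94 of 108 in ubc9-6 against W303a, 86 of 99 in Tfg1-HA against W303a and 109 of 126 in the difference of effects kept both direction and side of the threshold.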
